A study of Mus musculus with 2 samples.

Results

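Genes of glycolysis and of the response to low oxygen were compared between the zones of the femoral growth plate in *Tric-b*-knockout embryos. The set was a fixed list of 35 genes, of which 16 encode glycolysis enzymes, 6 encode transporters or control enzymes of glucose use, and 13 are other hypoxia genes. A gene was measured when at least 1 probe set was annotated to it alone. This held for 31 of the 35 genes, among 18193 genes measured in all, and it covered 13 enzymes, the 6 transport and control genes and 12 other hypoxia genes. *Gpi1* and *Eno1* were not analysed here. *Gapdh* and *Bnip3l* were left out because their 3 probe sets each were annotated to several genes, pseudogenes among them.

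Both arrays carried RNA from cartilage of *Tric-b*-KO embryos at E17.5, and the strain labels name C57BL/6J and 129Sv. *Tric-b*, also called *Tmem38b*, encodes a cation channel of the endoplasmic reticulum. One array held the columnar/hypertrophic section, with flat dividing chondrocytes in columns and the swollen cells they become. The other held the section enriched with round chondrocytes from the end of the bone. Each RNA was a mixture of 3 preparations and each zone had 1 array, so no difference has a replicate check or a p-value. Both zones carry the knockout label, and wild-type arrays were not analysed here. The 4 probe sets of *Tmem38b* had 43.1 to 304 in columnar/hypertrophic cartilage, against 69.4 to 323 in round cartilage, which without a wild type does not check the label.

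Growth cartilage has no vessels, and its chondrocytes live at low oxygen and make much of their energy by glycolysis. In low oxygen the transcription factor HIF is spared from prolyl hydroxylation and degradation, and it then binds short elements with the core ACGTG or GCGTG near its target genes. Known targets include most glycolysis enzymes, glucose transporters, the vascular growth factor *Vegfa*, carbonic anhydrases that set pH, and the prolyl hydroxylases themselves. Hypertrophic cartilage is later invaded by vessels.

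The promoters of 6 members show how the search for this core was done. *Car12*, *Car9*, *Aldoc* and *Eno2* are members that passed 2-fold between the zones, *Slc2a1* encodes the main glucose transporter, and *Ldha* had 5 matches before its first start, equal with *Bnip3* the most among the members. Each line gives the 250 bases before the first start listed by RefSeq in build GRCm38.p6, read 5′ to 3′ on the strand of the gene. Capitals mark ACGTG or GCGTG on either strand, so that CACGT and CACGC are matches on the other strand and CACGTG counts on both strands.
Car12, chr9:66713436-66713685, plus strand: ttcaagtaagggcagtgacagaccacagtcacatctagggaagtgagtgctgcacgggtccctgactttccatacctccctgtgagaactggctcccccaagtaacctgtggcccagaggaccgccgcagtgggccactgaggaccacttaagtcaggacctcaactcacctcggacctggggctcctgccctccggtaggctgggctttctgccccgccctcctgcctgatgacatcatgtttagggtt
Car9, chr4:43506776-43507025, plus strand: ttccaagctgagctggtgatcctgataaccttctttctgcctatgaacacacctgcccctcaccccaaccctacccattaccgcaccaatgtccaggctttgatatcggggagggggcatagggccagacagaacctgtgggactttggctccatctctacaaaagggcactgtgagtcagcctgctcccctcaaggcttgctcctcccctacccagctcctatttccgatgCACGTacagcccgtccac
Aldoc, chr11:78322823-78323072, plus strand: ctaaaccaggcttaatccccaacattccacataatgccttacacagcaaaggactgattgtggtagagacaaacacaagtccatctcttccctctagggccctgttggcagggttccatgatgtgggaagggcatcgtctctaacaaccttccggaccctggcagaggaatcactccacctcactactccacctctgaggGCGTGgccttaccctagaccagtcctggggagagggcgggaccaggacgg
Eno2, chr6:124769674-124769923, minus strand: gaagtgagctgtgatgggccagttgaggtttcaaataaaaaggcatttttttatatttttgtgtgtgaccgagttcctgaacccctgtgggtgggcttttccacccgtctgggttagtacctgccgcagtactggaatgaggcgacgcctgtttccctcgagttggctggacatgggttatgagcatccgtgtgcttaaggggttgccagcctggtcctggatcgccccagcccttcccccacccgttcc
Slc2a1, chr4:119108495-119108744, plus strand: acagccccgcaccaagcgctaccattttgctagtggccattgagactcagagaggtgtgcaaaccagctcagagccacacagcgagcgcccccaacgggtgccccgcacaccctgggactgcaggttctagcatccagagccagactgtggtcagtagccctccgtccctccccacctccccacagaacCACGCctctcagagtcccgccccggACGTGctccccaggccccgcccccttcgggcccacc
Ldha, chr7:46845554-46845803, plus strand: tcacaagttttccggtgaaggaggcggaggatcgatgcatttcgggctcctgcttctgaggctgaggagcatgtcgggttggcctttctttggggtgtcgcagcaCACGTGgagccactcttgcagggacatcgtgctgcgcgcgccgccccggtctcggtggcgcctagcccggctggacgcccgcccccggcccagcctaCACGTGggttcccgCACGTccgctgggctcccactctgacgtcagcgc

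The upstream sequences of *Car12* and *Eno2* held 0 matches. *Car9* had 1 match, on the other strand, with its first base 18 bases before the start. *Slc2a1* had 2, with first bases at 61 and 36 bases before the start. A RefSeq promoter was found for 28 of the 31 measured members, that is all but *Slc2a3*, *Epas1* and *Ndrg1*. Of these 28, 25 had a match before at least 1 of their starts, against 53.6% of the 14452 genes with a singly annotated probe set and a promoter. The genes without one were *Car12*, *Eno2* and *Tpi1*. Counted by promoter, 31 of the measured members' 40 held a match, against 38.6% of all 32851 promoters in the table, unmeasured genes included. Many members were listed because they are known HIF targets, so this share is a description of the list, and a match is not a binding site.

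The deposited signals are linear MAS5 values, in which the probes of a probe set are summarised within 1 array. Signals at or under the 40th percentile of both arrays, 65.9, were treated as a floor, and a difference with 1 array at the floor is a bound. A log2 difference was the columnar/hypertrophic signal minus the round signal on the log2 scale. The brightest probe set by mean log2 signal stood for a gene, and signals of different genes were not compared with each other. The only spread in these data is between probe sets of one gene, where the pooled SD of the log2 difference was 0.34, taken over 5446 genes. It contains no variation between embryos. The zone labels were set beside marker lists. These lists were chosen with earlier results of these data known, so they are not an independent check. Hypertrophic and prehypertrophic markers passed 2-fold on the columnar/hypertrophic side in 13 of 14 cases, *Col10a1* among them with 25421 there and 55.2, under the floor, in round cartilage. Markers of round, resting and articular chondrocytes were lower by 2-fold or more in 8 of 11 cases.

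Most glycolysis enzymes had a somewhat higher signal in the columnar/hypertrophic array, several by less than the spread between probe sets of one gene. The other hypoxia genes were spread over both directions. The median log2 difference was 0.33 over the 13 enzymes, 0.28 over the 6 transport and control genes and -0.29 over the 12 other hypoxia genes, beside -0.036 over all 12714 compared genes. The enzymes stood 0.62 above the other hypoxia genes by their medians. The interquartile ranges overlapped, at 0.018 to 0.455 for the enzymes and -0.698 to 0.269 for the other hypoxia genes. In these bulk specimens fewer cells of a type and less RNA per cell cannot be told apart. Above 0 were 10 of 13 enzymes, 4 of 6 transport and control genes and 5 of 12 other hypoxia genes, where 46.9% of all compared genes were above 0. For the other hypoxia genes this count is near that background. Differences of at least 2-fold were few. Higher by that rule were *Aldoc* and *Car12*, 2 of the 31 members, where 4.26% of all compared genes were, and lower were *Eno2*, *Slc2a3*, *Epas1* and *Car9*, 4 of the 31, where 6.17% of all were. By probe set, 39 of the 64 compared were above 0, beside 42.4% of all compared probe sets. At least 2-fold higher were 4 of the 64, beside 3.58% of all, and at least 2-fold lower were 5, beside 6.24% of all. Of all calls over all genes, 40.8% were on the higher side as deposited, 49.7% after centring on the median difference, 50.4% after quantile normalization and 51.5% after lowess centring. The members called were the same under these scalings except for *Aldoc*.

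**Figure D1:**
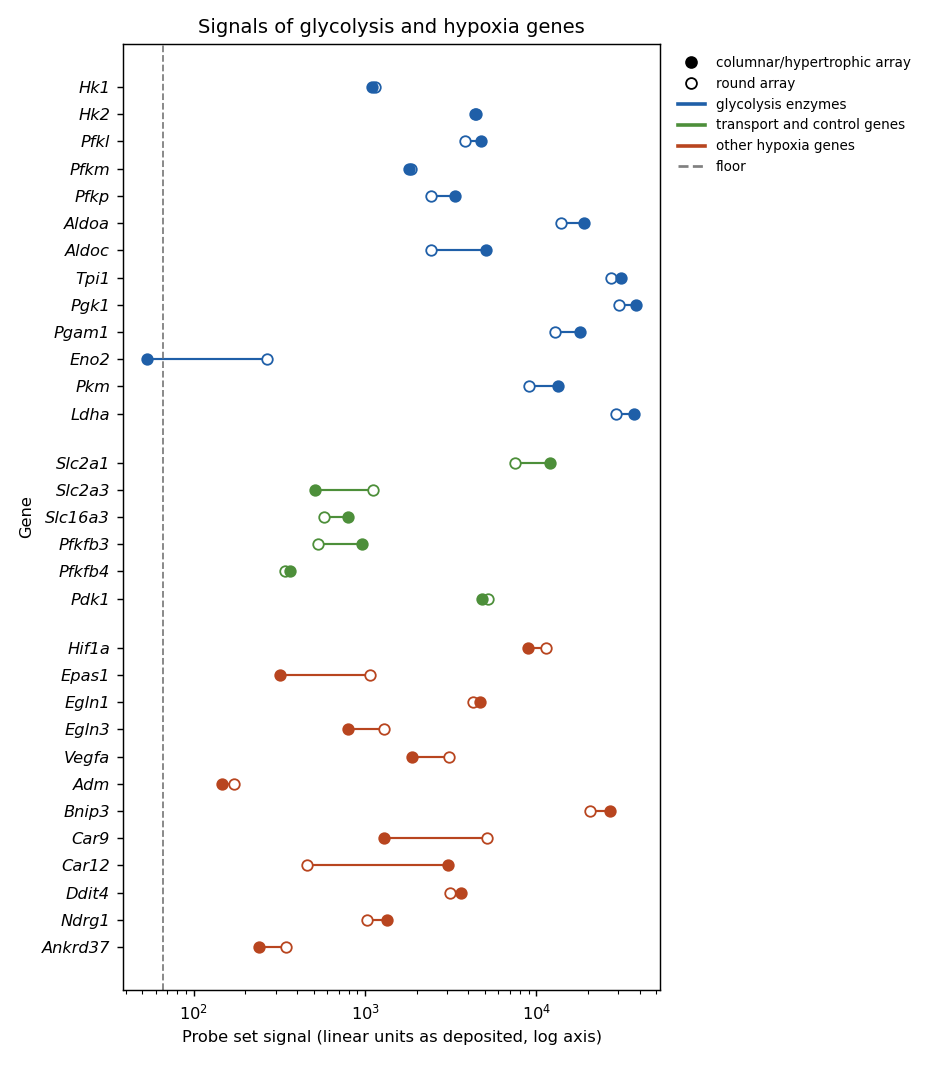
Signals of the 31 measured members on a log axis, in linear units as deposited, in the columnar/hypertrophic array (filled circles) and the round array (open circles), 1 array per zone. A dashed line marks the floor, 65.9. The widest gaps are those of *Car12*, *Eno2*, *Car9* and *Epas1*.

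The enzyme result was also set against brightness. Over the 113 genes with a mean signal over 20000 the median log2 difference was 0.10 and 77.9% were above 0. Over 4142 genes from 1000 to 20000 the median was 0.065 and 56.3% were above 0. After lowess centring, which removes the trend of the difference with brightness, the enzymes' median was 0.15, beside 0.022 over all genes. Above 0 were then 9 of 13 enzymes, with *Hk2* now below, where 52.0% of all genes were above 0. The other hypoxia genes then had a median of -0.18. The order of the 2 classes was the same, and the gap between their medians was 0.33. Leaving out the genes with a mean signal over 20000 moved the values the other way, to a median of 0.38 for the enzymes and -0.34 for the other hypoxia genes, with a gap of 0.72. The part of brightness in the gap was not tested.

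The genes of 2 glucose transporters lay in opposite directions. *Slc2a1*, which encodes GLUT1, the glucose transporter of most tissues, had signals of 12064, 10829 and 9864 in the columnar/hypertrophic array, against 7497, 6087 and 5277 on the same 3 probe sets in the round array. Its log2 differences were 0.69, 0.83 and 0.90, all on the higher side and under 2-fold. *Slc2a3*, which encodes GLUT3, a high-affinity transporter best known from neurons, had signals of 507 and 241 in the columnar/hypertrophic array, against 1112 and 404 in the round array. These are log2 differences of -1.13 and -0.74. The probe set ranges of the 2 transporters did not overlap, and the gene-level gap was 1.82. Both compared probe sets of *Slc2a3* are of the types that can share sequence with other transcripts, and its 2 other probe sets were under the floor in both arrays.

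The genes of the first phosphorylation, those of the hexokinases, had level signals between the zones. *Hk2*, the hexokinase induced by HIF, had a signal of 4450 in columnar/hypertrophic cartilage and 4395 in round cartilage. *Hk1*, the widely expressed hexokinase, had 1095 in the columnar/hypertrophic specimen, against 1138 in the round one. Their log2 differences of 0.018 and -0.056 are far inside the spread between probe sets of one gene, and the sign of both changed with the scaling.

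The genes of the phosphofructokinases, which commit sugar to glycolysis, had log2 differences within a narrow range. *Pfkp*, the platelet type, had 3342 in the columnar/hypertrophic array, against 2438 in the round array, a log2 difference of 0.45. *Pfkl*, the liver type, had 4778 in columnar/hypertrophic cartilage and 3823 in round cartilage, a difference of 0.32. *Pfkm*, the muscle type, had 1793 in the columnar/hypertrophic specimen, against 1842 in the round one, a difference of -0.038. Of these, only the difference of *Pfkp* lay beyond the spread of 0.34 between probe sets of one gene. The dimmest probe set of *Pfkp* gave -0.35 and that of *Pfkl* gave -0.12, so the sign of these 2 genes is not the same on every probe set. *Pfkfb3* and *Pfkfb4* encode enzymes that make and degrade the fructose bisphosphate that activates phosphofructokinase. *Pfkfb3* had 958 in the columnar/hypertrophic array, against 533 in the round array, a difference of 0.85, while its second, dim probe set gave 0.046. *Pfkfb4* had 362 in columnar/hypertrophic cartilage and 341 in round cartilage, a difference of 0.083.

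Aldolase splits the sugar, and the genes of both isoforms were higher in the columnar/hypertrophic array. *Aldoc*, the isoform best known from brain, had signals of 5095 and 237 in the columnar/hypertrophic array, against 2433 and 46.5 on its 2 probe sets in the round array. The differences were 1.07 and, as a bound, 1.84. *Aldoc* was the one enzyme at least 2-fold higher, and its lowest value over the settings was 0.97, just under 2-fold, so that quantile normalization and lowess centring each left no enzyme called on this side. *Aldoa*, the isoform of muscle and most other tissues, had 18912 in the columnar/hypertrophic specimen, against 13965 in the round one. All 5 of its probe sets were higher, by 0.27 to 0.44, and all are of the type that can cross-hybridise. *Aldoc* stood 0.63 above *Aldoa* in the log2 difference. Of 18 skeletal muscle markers, 7 were above the floor in the columnar/hypertrophic specimen and 4 in the round one, with summed signals of 1950 in columnar/hypertrophic cartilage, against 1310 in round cartilage. Their part in the *Aldoa* difference was not tested.

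The enzymes from triose phosphate to lactate had close and modest differences. *Tpi1*, which interconverts the triose phosphates, had 31071 in the columnar/hypertrophic array, against 27288 in the round array, and its 3 probe sets gave 0.19 to 0.20. *Pgk1*, which makes the first ATP of the pathway, had 38108 in columnar/hypertrophic cartilage and 30322 in round cartilage, with 0.31 to 0.33 over 3 probe sets. Both genes had signals over 20000 in each array. *Pgam1*, the phosphoglycerate mutase gene, had 18016 in the columnar/hypertrophic specimen, against 12858 in the round one, a difference of 0.49. *Pkm*, a pyruvate kinase gene, had 13391 in the columnar/hypertrophic array, against 9089 in the round array, a difference of 0.56. *Ldha*, whose enzyme turns pyruvate into lactate, had 37034 in columnar/hypertrophic cartilage and 29252 in round cartilage, a difference of 0.34. Of these 5 genes none reached 2-fold. The differences of *Tpi1*, *Pgk1* and *Ldha* lay inside the spread of 0.34 between probe sets of one gene. Those of *Pgam1* and *Pkm* lay beyond it. All 5 genes stayed above 0 under every setting that gave them a value, although *Tpi1* came down to 0.0043 in the lowest. The setting with plain-suffix probe sets alone left out *Tpi1*, *Pgam1* and *Ldha*, which have none.

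*Eno2* was the exception among the enzymes. It encodes the enolase best known from neurons, and its single probe set had a signal of 53.3, below the floor, in columnar/hypertrophic cartilage, against 267 in the round array. The difference was at least 4.05-fold, a bound of -2.02 on the log2 scale. A floor at the 60th percentile shrank this bound to -0.37. Markers of perichondrium, tendon and fibroblasts moved the same way, with 11 of 14 compared genes at least 2-fold lower in the columnar/hypertrophic array and none at least 2-fold higher. Summed over the 16 measured genes of this list, the signal was 37550 in the columnar/hypertrophic specimen, against 96695 in the round one, and their part in this and the other lower genes was not tested.

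**Figure D2:**
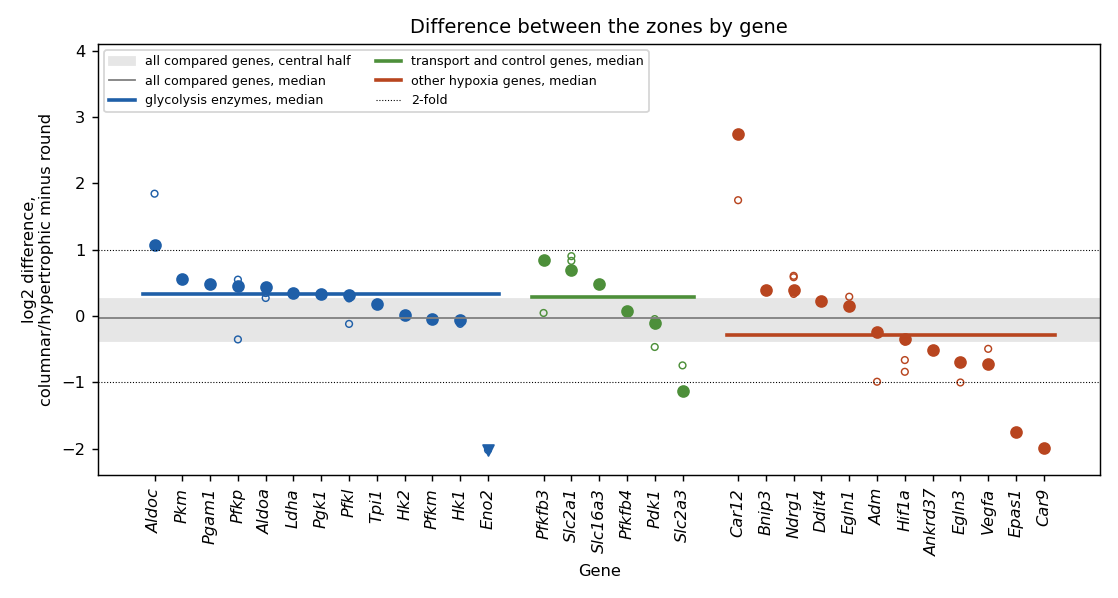
Log2 difference of each member, columnar/hypertrophic minus round, by class. Filled symbols are the probe set that stands for the gene, small open circles its other compared probe sets, the triangle a bound, coloured lines class medians (0.33, 0.28 and -0.29), the grey line and band the median and interquartile range of all compared genes, and dotted lines 2-fold.

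The ends of the pathway were read from the members *Slc16a3* and *Pdk1*. *Slc16a3*, which encodes the lactate exporter MCT4, had 796 in the columnar/hypertrophic array, against 572 in the round array, a difference of 0.48. *Slc16a1*, a further gene of lactate export, is not a member and was chosen after its value was seen. It had 8143 in the columnar/hypertrophic array, against 5675 in the round array, a difference of 0.52. *Pdk1*, whose kinase keeps pyruvate from oxidation in mitochondria, had 4833 in columnar/hypertrophic cartilage and 5224 in round cartilage. All 4 *Pdk1* probe sets were below 0, from -0.47 to -0.046. The probe set that stands for the gene gave -0.11, inside the spread of 0.34, and the dimmest gave the value beyond it.

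Beyond the members, 49 further genes of glycolysis, pyruvate and glycogen were listed, and 40 were compared. Of these, 1 was at least 2-fold higher and 1 at least 2-fold lower, where 4.26% and 6.17% of all compared genes were. Both counts are near those shares. Above 0 were 27 of the 40, where 46.9% of all compared genes were, and the median was 0.14, beside -0.036 over all. *Pygl*, which encodes a glycogen phosphorylase, had 11294 in the columnar/hypertrophic specimen, against 3672 in the round one, a 3.08-fold difference. *Fbp2*, which encodes a fructose bisphosphatase of gluconeogenesis, had 14.1, below the floor, in columnar/hypertrophic cartilage, against 169 in the round array, at least 2.56-fold lower. The other genes of glycogen and its sugar phosphates named here were chosen after their values were seen, and they lay on both sides. *Ugp2*, which makes the sugar nucleotide for glycogen, had 8378 in columnar/hypertrophic cartilage and 4297 in round cartilage, and all 5 of its probe sets were higher. *Gbe1*, the branching enzyme gene, had 615 in the columnar/hypertrophic specimen, against 308 in the round one, just short of the 2-fold rule. *Gys1*, the glycogen synthase gene, had 1377 in the columnar/hypertrophic array, against 987 in the round array. *Ppp1r3c*, which directs a phosphatase to glycogen, had 4477 in columnar/hypertrophic cartilage and 6659 in round cartilage, lower on both of its probe sets. *Pygb* and *Pygm*, the other glycogen phosphorylase genes, differed by 0.20 and, as a bound, 0.098. Of the phosphoglucomutase genes, *Pgm2* differed by -0.14 and *Pgm1* by 0.54. *Pgm1* had 4274 in the columnar/hypertrophic array, against 2935 in the round array, higher on both of its 2 probe sets. *Ldhb*, the other main lactate dehydrogenase gene and also picked afterwards, had 1815 in the columnar/hypertrophic specimen, against 2794 in the round one, and all 4 of its probe sets were lower.

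**Figure D3:**
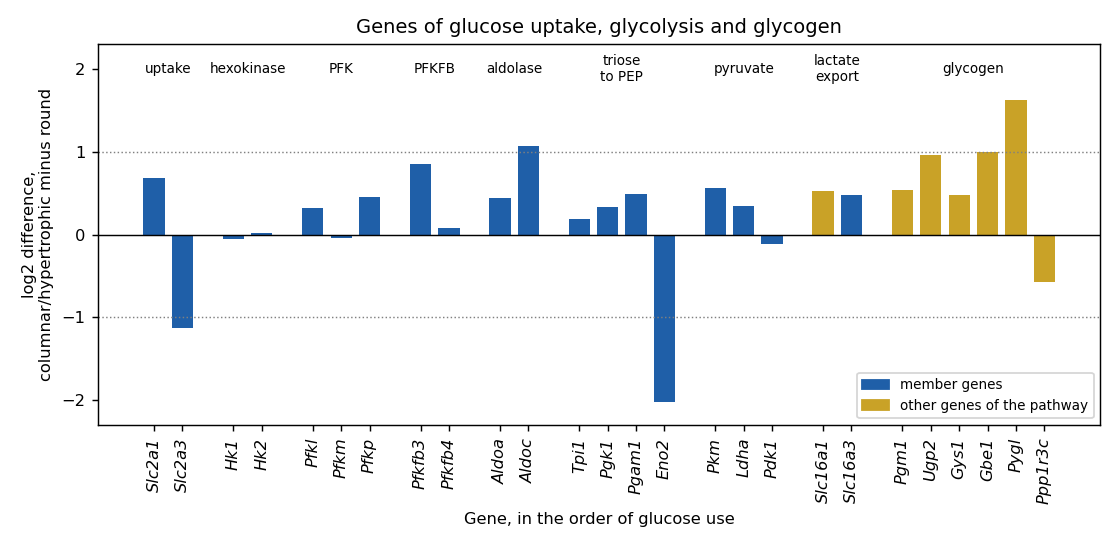
Log2 difference, columnar/hypertrophic minus round, of genes in the order of glucose use, with members in blue and other listed genes, chosen after their values were seen, in yellow. Dotted lines are 2-fold, the bar of *Eno2* is a bound, and the values run from -2.02 for *Eno2* to 1.62 for *Pygl*. *Fbp2*, *Ldhb*, *Pygb*, *Pygm* and *Pgm2*, which the text names, are not drawn.

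The genes of the HIF subunits were lower in the columnar/hypertrophic array. *Hif1a*, which encodes the oxygen-regulated HIF-1α, had 8958 in the columnar/hypertrophic array, against 11342 in the round array, a log2 difference of -0.34. Its 3 other probe sets gave -0.38, -0.66 and -0.84, so that all 4 were lower, none by 2-fold. *Epas1*, which encodes HIF-2α, had 317 in columnar/hypertrophic cartilage and 1068 in round cartilage, a 3.37-fold lower signal. Its second probe set was under the floor in both arrays. The gap between *Hif1a* and *Epas1* was 1.41. *Epas1* is also well known from endothelium, and the 9 compared endothelial markers had a median of -0.041, with 1 at least 2-fold lower and 6 of the 9 known only as bounds. Summed over all 13 measured endothelial genes, the signal was 817 in the columnar/hypertrophic specimen, against 957 in the round one, and their part in *Epas1* was not tested.

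The genes of the hydroxylases that mark HIF for degradation differed from each other. *Egln1*, which encodes PHD2, the main HIF prolyl hydroxylase, had 4701 and 3082 in the columnar/hypertrophic array, against 4234 and 2519 in the round array. Both probe sets were slightly higher, by 0.15 and 0.29. *Egln3*, which encodes the HIF-induced PHD3, had 795 and 146 in the columnar/hypertrophic array, against 1283 and 293 in the round array. Its brighter probe set differed by -0.69 and the dim one was just past 2-fold lower. *Egln3* lay 0.84 below *Egln1* at the gene level.

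Of 20 further listed HIF regulators 18 were compared, with a median of -0.19, beside -0.036 over all compared genes. Below 0 were 13 of the 18, where 6754 of all 12714 compared genes were. At least 2-fold higher was 1 and at least 2-fold lower was 1, near the shares of 4.26% and 6.17% over all genes. *Siah2*, encoding a ubiquitin ligase that acts on the prolyl hydroxylases, was the one at least 2-fold higher, with 2018 in the columnar/hypertrophic array, against 664 in the round array, and its 2 probe sets gave 1.60 and 1.98. *Arnt2*, encoding a partner of the HIF-α subunits, was the one at least 2-fold lower, with 61.1, under the floor, in columnar/hypertrophic cartilage and 134 in round cartilage. *Arnt*, the main partner, had 1768 in the columnar/hypertrophic specimen, against 2536 in the round one. *Hif3a*, a further α subunit gene, had 451 in the columnar/hypertrophic array, against 776 in the round array. Lower were 4 of 5 compared probe sets of *Arnt* and 2 of 3 of *Hif3a*, with highest values of 0.039 and 0.072. *Cited2*, which competes with HIF for its coactivators, had 1320 in columnar/hypertrophic cartilage and 763 in round cartilage. *Arnt*, *Hif3a* and *Cited2* were named after their values were seen.

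The carbonic anhydrases gave the widest contrast of the set. *Car12*, which encodes a membrane carbonic anhydrase, had signals of 3064 and 221 in the columnar/hypertrophic array, against 459 and 41.9 on its 2 compared probe sets in the round array. It was 6.67-fold higher on the first, and the second gave a bound of 1.75 on the log2 scale. *Car9*, whose membrane enzyme is a classic HIF-1 target, had 1291 in the columnar/hypertrophic specimen, against 5119 in the round one, 3.97-fold lower. The gap between the 2 log2 differences was 4.72, and it lay between 4.23 and 4.83 over the other settings.

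None of the 6 remaining hypoxia members reached 2-fold at the gene level. *Vegfa*, which draws vessels into cartilage, had 1877 and 681 in the columnar/hypertrophic array, against 3095 and 960 in the round array. The differences of -0.72 and -0.49 were both under 2-fold. *Adm*, encoding the vasodilator peptide adrenomedullin, had 145 and 84.0 in the columnar/hypertrophic array, against 172 and 167 in the round array, all of them dim. Its gene-level difference of -0.24 came to -0.013 with quantile normalization and -0.019 with lowess centring, but to -0.62 with the mean over probe sets. The second *Adm* probe set alone gave -0.99. *Ankrd37*, an ankyrin repeat gene induced by HIF, had 241 in the columnar/hypertrophic array, against 344 in the round array, a difference of -0.52.

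*Bnip3*, whose protein directs mitochondria to autophagy, had 26932 in columnar/hypertrophic cartilage and 20496 in round cartilage, a difference of 0.39. *Ddit4*, which encodes the mTORC1 inhibitor REDD1, had 3650 in the columnar/hypertrophic specimen, against 3113 in the round one, a difference of 0.23. *Ndrg1*, a stress and differentiation gene, had 1335 in the columnar/hypertrophic array, against 1021 in the round array, and all 5 of its probe sets were higher, by 0.33 to 0.61.

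A wider list of 58 HIF-induced genes gave 50 compared genes, with 24 above 0, 26 below, and a median of -0.064. At least 2-fold higher were *Atf3*, a stress transcription factor gene, at 491 in columnar/hypertrophic cartilage and 149 in round cartilage, and *Hmox1*, the heme oxygenase gene, at 524 in the columnar/hypertrophic specimen, against 231 in the round one. At least 2-fold lower were *Igfbp3*, *Cxcl12*, *Stc1* and *Selenbp1*. *Stc1*, encoding stanniocalcin, had 232 in the columnar/hypertrophic array, against 824 in the round array. *Cxcl12*, a chemokine gene of stromal cells, had 48.4, under the floor, in columnar/hypertrophic cartilage and 345 in round cartilage, and *Igfbp3*, an IGF-binding protein gene, had 28.0, also under the floor, in the columnar/hypertrophic specimen, against 370 in the round one. *Selenbp1*, a selenium-binding protein gene, had 542 in columnar/hypertrophic cartilage, against 1347 in round cartilage. The counts of 2 higher and 4 lower of 50 are near the shares over all genes.

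**Figure D4:**
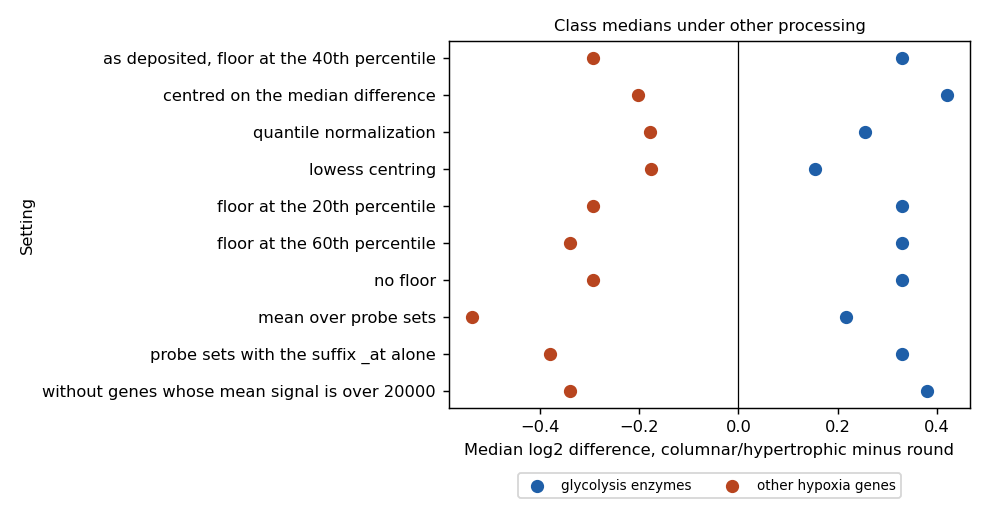
Median log2 difference, columnar/hypertrophic minus round, of the glycolysis enzymes (blue) and the other hypoxia genes (red) under the processing settings on the vertical axis, without those that move genes between the classes. The enzymes lie between 0.15 and 0.42 and the other hypoxia genes between -0.54 and -0.18.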

How the data were processed

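Gene expression was measured on 2 Affymetrix mouse genome arrays, 1 per zone. The intensities deposited by the authors are linear probe set signals, made with MAS5 according to the submitters' processing notes, which give no version. The methods name robust multiarray analysis for heatmaps. The deposited values reach 68899, so they are not log values. Means trimmed by 2% at each end were 496 for columnar/hypertrophic and 497 for round cartilage, and no further scaling was applied.

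Of 45037 probe sets, 34945 were annotated to 1 gene, 932 to several and 9160 to none here. Entrez identifiers of 34741 were found in a RefSeq gene table, and 0 symbols changed. The members had 68 probe sets, of which 64 were above the floor in at least 1 array and 3 of these gave a bound. Calls used a size rule of 2-fold with no test, since each zone had 1 array, and the number of arrays limits the precision. Samples were grouped by their cell type label. All members are named. Of the other pathway lists, up to 6 genes in each direction were named that passed 2-fold with the same sign on all compared probe sets, and further genes are marked as chosen later. Members and lists were chosen with earlier results of these data known. Promoter sequences came from RefSeq, build GRCm38.p6. Alternatives covered scaling, floor, probe set choice, size rule, bright genes and class membership. The steps were tested on simulated data. Software was matplotlib 3.10.9, pandas 2.3.3 and numpy 2.4.6, with lowess from statsmodels 0.14.6, under Python 3.11.15.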

Additional observations from a re-analysis of the deposited data

How the results depend on the processing

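No paired analysis was possible because there was a single array for either zone. The enzymes' median stayed above 0 and that of the other hypoxia genes below 0 under every setting tried, but their sizes moved. The enzymes' median was 0.15 after lowess centring and 0.22 with the mean over probe sets, against 0.33 as reported. That of the other hypoxia genes was -0.18 with quantile normalization, -0.18 with lowess centring, -0.54 with the mean over probe sets, and -0.015 with the transport and control genes counted among them, against -0.29. The gap between the classes was 0.43 with quantile normalization and 0.33 with lowess centring, against 0.62. The count of 1 enzyme at least 2-fold higher was 0 after quantile normalization, after lowess centring and at 3-fold. The count of 1 enzyme at least 2-fold lower was 0 with a 60th-percentile floor and 0 on probe sets with the plain suffix, where *Eno2* has none. Over all probe sets, 1047 were at least 2-fold higher and 1827 lower. These counts were 2369 and 3936 with a 20th-percentile floor, 601 and 801 at the 60th, 5074 and 7128 with no floor, and 385 and 572 at 3-fold. Of the single members' values under other settings, 233 stayed within the pooled SD of 0.34 of the reported value, 7 moved further, and 0 of the called ones changed sign. For the class medians the tolerance was that SD divided by the square root of the number of genes, 0.095 and 0.099. The cause was not tested.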
